A study of Saccharomyces cerevisiae with 22 samples.

Results

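Early glucose growth with and without 3AT was compared on 4 of the 22 arrays of the series, those at 574 and 592 h of the chemostat with 40 mM 3AT (called 3AT40mM) against those at 344 and 353 h of the chemostat without it (no3AT). Budding yeast, Saccharomyces cerevisiae, had been grown to steady state in galactose, moved to glucose and sampled at labelled hours. The 3AT40mM culture is labelled with the drug in galactose and in glucose alike. All 4 arrays carry total RNA labelled with Cy5, against a Cy3 reference pooled from glucose and galactose cultures. A second chemostat without drug (no3AT2, polyA RNA) and the galactose arrays of both cultures, at 305 and 316 h in no3AT and at 477 and 522 h in 3AT40mM, serve here only for comparison. The labels give neither strain nor genotype. Knowledge of the study from outside the labels is that HIS3 was driven by a GAL1 promoter, and its level need not follow that of a native histidine gene.

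The 4 arrays were chosen partly by their values. The 3AT40mM array at 552 h has the lowest labelled hour in glucose but was left out for its likeness to galactose: across genes it correlated with the galactose arrays of its culture at 0.867 (522 h) and 0.669 (477 h), and with the arrays at 574 and 592 h at -0.196 and -0.245. The glucose arrays compared therefore lie at different distances from the switch. The last galactose array preceded those at 344, 353, 574 and 592 h by 28, 37, 52 and 70 h. Each condition is 1 culture, and its arrays are 2 harvests at different hours, so that culture, time in glucose and drug cannot be told apart. The p-values below measure only the spread between arrays of the same cultures, which may be technical.

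The compound 3AT, 3-amino-1,2,4-triazole, is a competitive inhibitor of His3, an enzyme of histidine synthesis. In budding yeast, histidine shortage activates the kinase Gcn2, which raises translation of the transcription factor Gcn4, and Gcn4 in turn activates genes of many amino acid pathways. Glucose independently represses the GAL genes and respiration, and promotes the expression of ribosomal protein and ribosome biogenesis genes.

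Values are log2 ratios of sample over reference, each array centred on its median. The log base is taken as 2 because the values are signed and lie around 0; the deposited table does not state it. Differences are means of the 2 arrays of 3AT40mM minus means of the 2 arrays of no3AT. They were tested with limma across 4773 genes, and adjusted p-values are Benjamini-Hochberg values over all of them, with 0.05 as the threshold.

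Few genes passed the test in early glucose. Of the 4773 genes with enough values, out of 6242 in the table, 14 passed (0.293%), 3 higher (0.0629%) and 11 lower (0.23%) in 3AT40mM, and 963 had an unadjusted p under 0.05. The higher genes were ZRT1, which encodes the high-affinity zinc transporter of the plasma membrane, BAT2, which encodes the cytosolic branched-chain amino acid transaminase, and LYP1, which encodes the lysine permease. The lower genes were RPS8B, RPL31A and RPL4B of the cytosolic ribosome, SUE1, needed for breakdown of unstable cytochrome c, YAR064W and 6 IDs that matched no gene of the annotation used. The means of 622 genes lay over 2-fold apart, 234 of them higher and 388 lower in 3AT40mM.

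The no3AT arrays differed from each other more than the 3AT40mM arrays did. Between 344 and 353 h, 1113 genes (23.3%) lay over 2-fold apart, against 337 (7.06%) between 574 and 592 h. Across genes the arrays of 1 culture correlated at 0.533 in no3AT and 0.801 in 3AT40mM, and arrays of different cultures at 0.416 to 0.585. Over the 11 arrays of the fit the correlations ran from -0.37 to 0.80, and the direction of every ratio follows the labelled dyes. The array at 353 h stood apart in a further way. Rows 2 apart in the deposited table correlated there at 0.604, but adjacent rows at -0.011, while on the other 3 arrays both values lay close together, at 0.33 and 0.32 (344 h), 0.29 and 0.28 (574 h) and 0.45 and 0.44 (592 h). A setting called neighbour-corrected therefore took from each value the median of every second row around it, 10 before and 10 after. With it 98 genes passed (2.05%), 42 higher (0.88%) and 56 lower (1.17%), and 11 of the 14 were among them. Where it changed a call of a named gene, its value is given.

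**Figure D1:**
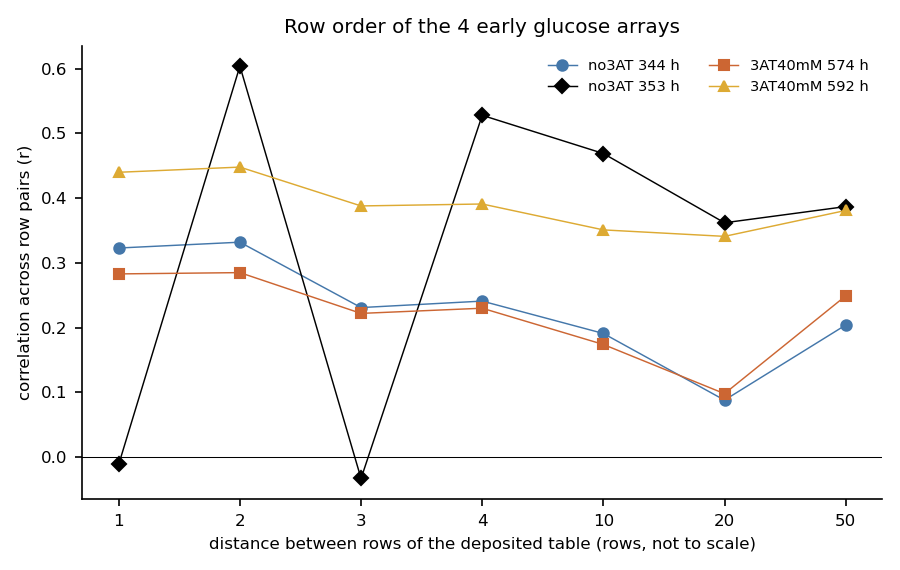
Correlation between values of rows at a given distance in the deposited table (y axis, r across row pairs) for the 4 early glucose arrays, by distance in rows (x axis, not to scale). The array at 353 h alternates between 0.604 at a distance of 2 rows and -0.011 at 1 row, and the other 3 arrays do not alternate.

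The largest difference was that of ZRT1. Its log2 ratios were -3.53 and -3.00 at 344 and 353 h in no3AT, and 0.76 and -0.33 at 574 and 592 h in 3AT40mM. The arrays of the cultures lay far apart, and every other array of either culture, in galactose or glucose, lay between -4.71 and -1.98, so the 574 and 592 h arrays were the only high ones of the 16. The difference was 3.48 (SE 0.56, adjusted p = 0.0290), and 3.79 neighbour-corrected (adjusted p = 0.0117). In galactose it was -0.20 (adjusted p = 0.9840). ZRT1 was the gene left when the galactose array at 305, 316, 477 or 522 h was left out. It did not pass without the array at 353, 574 or 592 h, and with 1 array left out its difference ran from 2.93 to 4.02.

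The other zinc genes did not pass. Of 10 measured genes of the zinc regulon, which is activated by Zap1 when zinc is scarce, 1 passed, 3 lay wholly higher and 1 wholly lower in 3AT40mM, and the median difference was 0.07 (-0.47 to 0.30 over 28 settings) against -0.11 for all genes. Across all genes 21.5% lay wholly higher in 3AT40mM, meaning both its arrays above both of no3AT, and 27.3% wholly lower. ZRT2, the low-affinity zinc transporter gene, stood at -0.04 and -0.08 in no3AT and 0.69 and 0.49 in 3AT40mM (difference 0.65, adjusted p = 0.3118). ADH4, an alcohol dehydrogenase gene, differed by 0.57 (adjusted p = 0.3952), and ZAP1 itself by -0.72 (adjusted p = 0.2885).

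LYP1, the lysine permease gene, was higher in 3AT40mM. Its log2 ratios were -0.34 and -0.55 in no3AT and 1.45 and 1.45 in 3AT40mM. The no3AT arrays lay within the range of its galactose levels, -0.15 and -0.59 in no3AT and -0.82 and -0.46 in 3AT40mM, whereas the 3AT40mM arrays in early glucose stood above all 4. The difference was 1.90 (SE 0.36, adjusted p = 0.0408), and 1.86 neighbour-corrected (adjusted p = 0.0117). At 850 and 878 h LYP1 stood at 1.09 and 0.50 in 3AT40mM.

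Of 15 measured amino acid permease genes LYP1 was the 1 that passed, 3 lay wholly higher and 2 wholly lower. Neither share exceeded that of all genes, 21.5% wholly higher and 27.3% wholly lower. The median difference was -0.15, against -0.11 for all genes, and turned to 0.03 without the 353 h array. MUP1, the methionine permease gene, stood at 0.81 (adjusted p = 0.2763), while AGP1, which encodes a broad-range permease, stood at -1.04 (adjusted p = 0.1757) and BAP2, which encodes a branched-chain permease, at -0.94 (adjusted p = 0.2024).

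Among the lysine genes, LYS9 and LYS1 had the largest differences without passing. LYS9, saccharopine reductase, stood at 0.35 and 2.63 in no3AT and at 4.25 and 3.55 in 3AT40mM, where the pair of no3AT arrays is far apart but both lie below both 3AT40mM arrays. The difference was 2.41 (SE 0.55, adjusted p = 0.0543), and 3.05 neighbour-corrected (adjusted p = 0.0117). With 1 array left out it ran from 1.27 to 3.55. LYS1, which makes lysine in the last step, stood at 1.33 and 0.67 against 2.51 and 2.69, a difference of 1.60 (SE 0.36, adjusted p = 0.0543) and of 1.95 neighbour-corrected (adjusted p = 0.0117). LYS14, the activator of the pathway, differed by 0.90 (adjusted p = 0.2640), or 1.40 neighbour-corrected (adjusted p = 0.0475). LYS2, which carries an earlier step, lay lower, at 0.01 and -0.19 against -0.84 and -0.77 (difference -0.72, adjusted p = 0.2530). Over all 8 measured lysine genes 0 passed, 3 lay wholly higher (37.5%) and 1 wholly lower (12.5%), against 21.5% and 27.3% of all genes. The median difference was 0.07. That median was 0.34 without the 353 h array and 0.36 without the 592 h array, and changed sign in 4 of 28 settings, from -0.29 to 0.55. Neighbour-corrected, 3 of the 8 passed, all higher, against 98 of all 4773 genes (2.05%), 42 of them higher (0.88%). In that setting 9 of 119 cytosolic ribosomal protein genes also passed, all lower, and 3 of 49 ribosome biogenesis genes, all higher.

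BAT2 was the 1 of 12 measured branched-chain genes that passed. It had log2 ratios of 0.06 and -0.63 in no3AT and 1.66 and 1.98 in 3AT40mM, both of the latter above both of the former. The difference was 2.11 (SE 0.39, adjusted p = 0.0408), but 1.08 neighbour-corrected (adjusted p = 0.0627). In no3AT the gene stood at 1.77 at 385 h, a level near those of 3AT40mM, but on 1 array. Rows 2 apart correlated at 0.66 on that array and adjacent rows at 0.125, and its value is not neighbour-corrected. ILV6, the regulatory subunit of acetolactate synthase, lay lower, at 1.34 and 2.20 against 0.56 and 0.36 (difference -1.31, adjusted p = 0.0892), and so did LEU2, isopropylmalate dehydrogenase, at 1.36 and 1.74 against 1.19 and -0.34 (difference -1.12, adjusted p = 0.2094). Of the 12 genes, 3 lay wholly higher (25.0%) and 4 wholly lower (33.3%), near the 21.5% and 27.3% of all genes. The median of -0.16 turned to 0.08 without the 353 h array and to 0.12 without the 592 h array.

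No aromatic, arginine, vitamin B6 or purine gene passed. ARO8, an aromatic aminotransferase, stood at 1.13 and -0.05 in no3AT and 2.77 and 2.07 in 3AT40mM (difference 1.88, SE 0.42, adjusted p = 0.0543), and differed by 1.83 neighbour-corrected (adjusted p = 0.0357). TRP2, anthranilate synthase, differed by 1.39 (adjusted p = 0.0778). Against these, ARO3 and ARO4, the entry enzymes of the aromatic pathway, stood at -0.99 and -0.95 (adjusted p = 0.1695 and 0.1896). Of the 13 measured aromatic genes 3 lay wholly higher and 3 wholly lower, 23.1% each, near the shares of all genes. The median of -0.35 was the lowest of 28 settings and changed sign in 7 of them, to 0.30 neighbour-corrected and 0.03 without the 353 h array among others.

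ARG4, argininosuccinate lyase, differed by 1.20 (adjusted p = 0.1349) and ORT1, the mitochondrial ornithine carrier gene, by 0.83 (adjusted p = 0.2091). Of 7 measured arginine genes 4 lay wholly higher (57.1%) and 1 wholly lower (14.3%), against 21.5% and 27.3% of all genes. The list median was 0.66. With the 344 h array left out that median was 0.21.

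SNO1, which with SNZ1 encodes a stationary-phase vitamin B6 enzyme, stood at 0.73 and 0.01 in no3AT and 1.91 and 2.16 in 3AT40mM (difference 1.66, SE 0.38, adjusted p = 0.0543), or 1.26 neighbour-corrected (adjusted p = 0.0357). Its neighbour SNZ1, at 1.64 and 3.55 against 2.22 and 2.29, overlapped between the cultures (difference -0.34). SNZ3 lay at 1.26 (adjusted p = 0.0923). Of the purine genes, PRS3, a phosphoribosyl pyrophosphate synthetase, differed by 1.5 (adjusted p = 0.0576), or 1.29 neighbour-corrected (adjusted p = 0.0357), and ADE12, adenylosuccinate synthase, by 1.22 (adjusted p = 0.0862), while ADE8 stood at -1.66 (adjusted p = 0.0849) and GCV1, of the glycine cleavage complex, at -1.09 (adjusted p = 0.1555). Of the 15 measured purine genes 4 lay wholly higher (26.7%) and 5 wholly lower (33.3%), near the shares of all genes. The median of 0.25 turned to -0.37 without the 344 h array, -0.08 without 353 h and -0.07 without 574 h, and was 0.07 neighbour-corrected.

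No histidine gene passed. HIS1, the first enzyme, stood at 1.96 and 2.89 in no3AT and at 2.69 and 2.04 in 3AT40mM, and HIS4, a multifunctional enzyme, at 1.5 and 1.80 against 1.80 and 1.31. On these genes the arrays of the cultures overlap, and all 4 stand above the galactose arrays of the same gene. The differences were -0.06 for HIS1, -0.10 for HIS4, -0.19 for HIS5, -0.56 for HIS6 and 0.51 for HIS7, with adjusted p between 0.4728 for HIS7 and 0.9470 for HIS1. HIS1, HIS4 and HIS5 turned positive with quantile normalization and neighbour-corrected, without passing. HIS3, the target of the drug, stood at -1.61 and -1.30 in no3AT and at -1.82 and -1.66 in 3AT40mM, so it was low in both cultures in early glucose (difference -0.29, SE 0.49, adjusted p = 0.7576). The median of the 6 tested genes was -0.14, and changed sign in 6 of 28 settings.

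GCN4, which is regulated mostly in translation, did not pass at the transcript level. It stood at 1.38 and 1.68 in no3AT and at 1.26 and 0.47 in 3AT40mM, a difference of -0.66 (SE 0.39, adjusted p = 0.3435). Among regulators of general control, GCN20, a partner of Gcn1 in activating Gcn2, differed by 1.00 (adjusted p = 0.1757), GCD2, a subunit of the exchange factor eIF2B, by 0.89 (adjusted p = 0.2503) and GCD10, of a tRNA methyltransferase, by 0.76 (adjusted p = 0.2503). The 8 measured regulators had a median of 0.44, and 0 passed. Of them 5 lay wholly higher (62.5%) and 3 wholly lower (37.5%), against 21.5% and 27.3% of all genes.

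**Figure D2:**
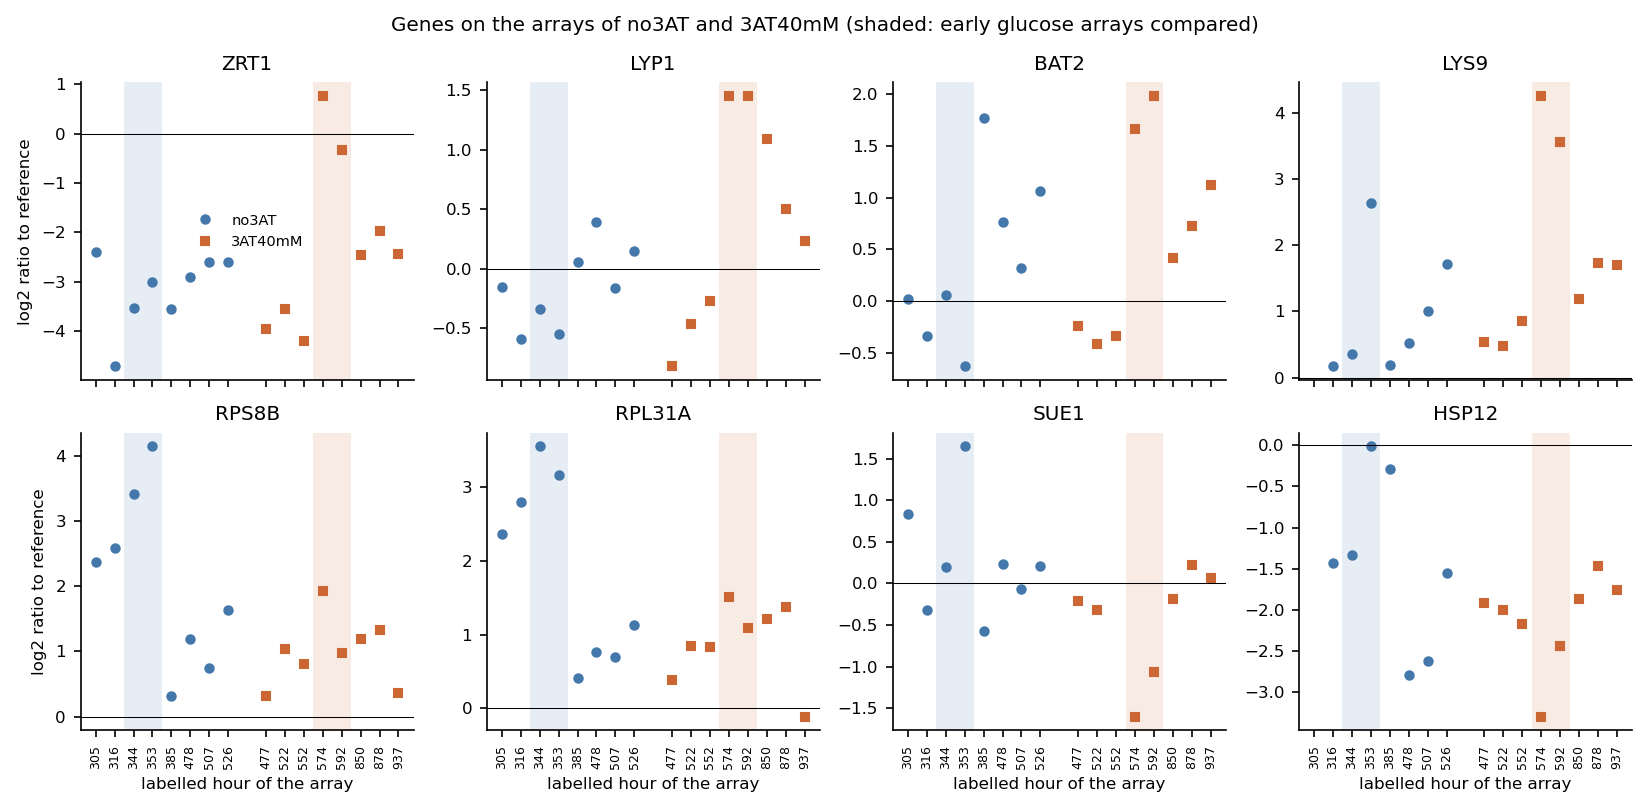
Log2 ratio to the reference (y axis) of 8 genes on the 16 arrays of no3AT (circles) and 3AT40mM (squares), ordered by labelled hour (x axis), with the early glucose arrays compared shaded. ZRT1 is high only on the 574 and 592 h arrays, and RPS8B and RPL31A are high in galactose and early glucose of no3AT.

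Of 119 measured genes of cytosolic ribosomal proteins, 3 passed, all lower in 3AT40mM. RPS8B, a protein of the small subunit, stood at 3.42 and 4.15 in no3AT and at 1.92 and 0.97 in 3AT40mM. The no3AT arrays stand well above both 3AT40mM arrays. The difference was -2.34 (SE 0.44, adjusted p = 0.0408).

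RPL31A, of the large subunit, stood at 3.55 and 3.16 against 1.51 and 1.09 (difference -2.05, SE 0.38, adjusted p = 0.0408). RPL4B, also of the large subunit, stood at 2.85 and 3.08 against 1.32 and 0.64 (difference -1.98, SE 0.38, adjusted p = 0.0408). Each of the 3 has a close paralog, and the deposited ratios do not show how much of a signal came from the other copy. They also passed neighbour-corrected, at -2.24, -2.01 and -1.83, but not with quantile normalization, at -1.37, -1.15 and -1.10. The acidic stalk protein gene RPP2B, at -1.97, did not pass (adjusted p = 0.0543), but did neighbour-corrected, at -1.88 (adjusted p = 0.0357).

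These genes also had lower values in 3AT40mM in galactose, where they did not pass. RPS8B stood at 2.37 and 2.58 in galactose in no3AT, and at 0.31 and 1.04 in 3AT40mM, a difference of -1.79 (SE 0.44, adjusted p = 0.3023). RPL31A differed there by -1.96 (adjusted p = 0.0911) and RPL4B by -1.5 (adjusted p = 0.3023). Over the 119 genes the median difference was -0.61 in early glucose and -0.73 in galactose, against -0.11 and 0.03 for all genes. The median change of these genes from galactose to early glucose was 0.72 in no3AT and 0.88 in 3AT40mM, as a description.

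Per array the median of the 119 genes was 1.69 and 1.95 in no3AT and 1.58 and 0.89 in 3AT40mM in early glucose, and 0.87 and 1.41 against 0.24 and 0.39 in galactose. The 592 h array is the low one in early glucose. In all, 53 of the 119 lay wholly lower (44.5%) and 6 wholly higher (5.04%), against 27.3% and 21.5% of all genes. Without the 592 h array the median difference was -0.33, and without the 574 h array -0.90. Over 28 settings it stayed below 0, between -0.90 and -0.14.

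**Figure D3:**
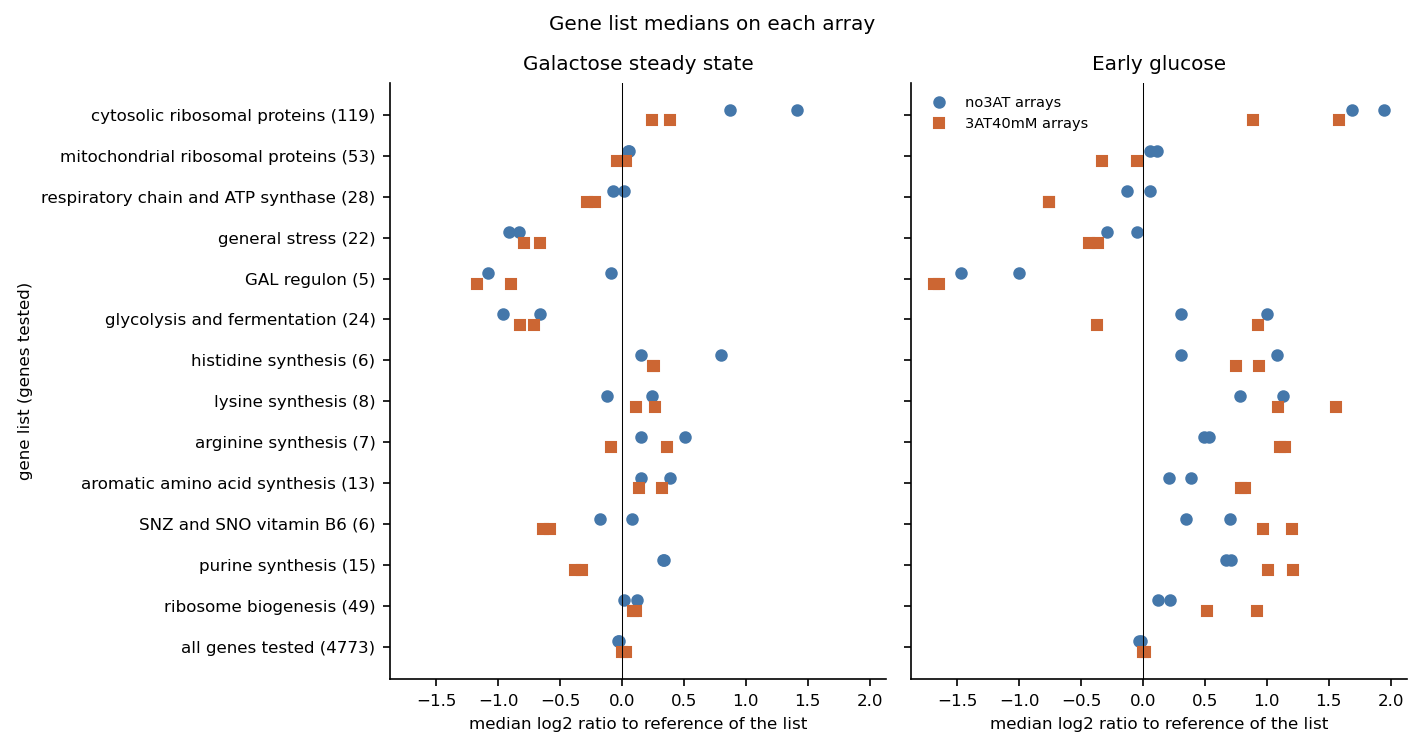
Median log2 ratio to the reference (x axis) of each gene list (y axis, with the number of genes tested) on each galactose array (left) and each early glucose array (right) of no3AT (circles) and 3AT40mM (squares). Cytosolic ribosomal protein genes are lower in 3AT40mM in both phases. Respiratory chain genes stand lower in early glucose, at -0.76 on both 3AT40mM arrays. In galactose they are lower by less, at -0.22 and -0.28 against -0.07 and 0.02 in no3AT.

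**Figure D4:**
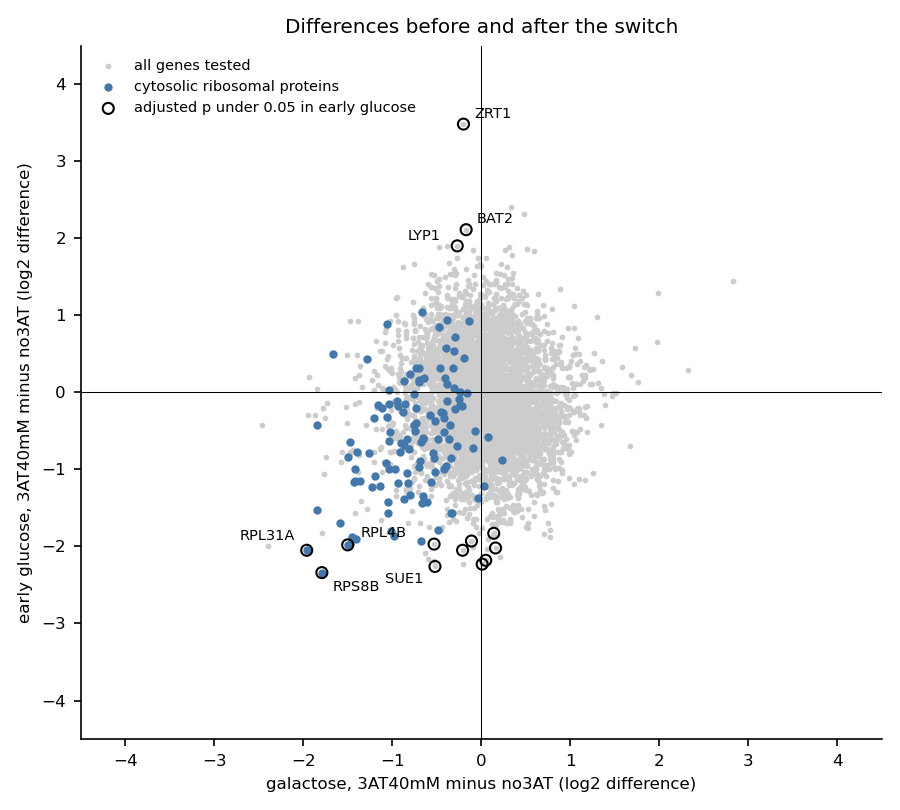
Log2 difference of 3AT40mM minus no3AT in early glucose (y axis) against that in galactose (x axis) for all genes tested (grey), with cytosolic ribosomal protein genes in blue and genes that passed in early glucose circled. ZRT1, BAT2 and LYP1 lie near 0 in galactose, while RPS8B, RPL31A and RPL4B are low on both axes.

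Genes of ribosome biogenesis, which build pre-ribosomes in the nucleolus, lay higher in 3AT40mM while the ribosomal protein genes lay lower. Of 49 measured genes 25 lay wholly higher (51.0%) and 4 wholly lower (8.16%), against 21.5% and 27.3% of all genes. The list median was 0.46, with 0 passing. The array medians were 0.12 and 0.22 in no3AT and 0.92 and 0.52 in 3AT40mM. UTP15, of the small-subunit processome, stood at 0.18 and -1.05 against 1.41 and 1.41 (difference 1.84, SE 0.41, adjusted p = 0.0543), and passed neighbour-corrected at 1.5 (adjusted p = 0.0296). NSR1, a nucleolin-like protein gene, stood at 0.23 and 0.31 against 1.87 and 1.25 (difference 1.29, adjusted p = 0.0952). SSF1, of large-subunit maturation, differed by 1.41 (adjusted p = 0.0729). IMP3, of the small-subunit processome, lay lower at -1.24 (adjusted p = 0.0988). In galactose the median of the list was -0.05, and over 28 settings the early median ran from 0.23 to 0.64.

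Genes of mitochondrial respiration lay lower in 3AT40mM. Of 28 measured genes of the respiratory chain and ATP synthase, 22 lay wholly lower (78.6%) and 0 wholly higher. Across all genes these shares were 27.3% and 21.5%. The list median was -0.72, against -0.11 for all genes, with 0 passing. The array medians were -0.13 and 0.06 in no3AT and -0.76 and -0.76 in 3AT40mM, against -0.07, 0.02, -0.22 and -0.28 on the galactose arrays. RIP1, the Rieske protein of complex III, stood at 0.12 and 0.94 against -1.03 and -1.04 (difference -1.56, SE 0.39, adjusted p = 0.0565).

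The other respiratory genes named differed by about 1. ATP4, a stator subunit of ATP synthase, differed by -1.19 (adjusted p = 0.1281), ATP1, its catalytic core subunit alpha, by -1.16 (adjusted p = 0.1456) and COX5A, a cytochrome oxidase subunit, by -1.12 (adjusted p = 0.1078). Over 28 settings the median ran from -0.88 to -0.40. Genes of mitochondrial ribosomal proteins had a smaller median, -0.44, with 0 passing. Of these 53, 28 lay wholly lower (52.8%) and 3 wholly higher (5.66%), against 27.3% and 21.5% of all genes. MRP21 stood at -1.43 (adjusted p = 0.0952) and MRPL16 at -1.27 (adjusted p = 0.1035).

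SUE1, which acts on cytochrome c, passed, with log2 ratios of 0.20 and 1.65 in no3AT and -1.60 and -1.06 in 3AT40mM. The no3AT arrays lay above 0 and the 3AT40mM arrays below it. The difference was -2.26 (SE 0.47, adjusted p = 0.0487), and without the 353 h array it was -1.54 and did not pass.

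The 6 called IDs that matched no gene, YGL109W, YOR053W, YNL028W, YNL319W, YFL013W-A and YDL118W, had differences between -2.23 and -1.83. YGL109W, at 0.11 and 1.44 in no3AT and -1.66 and -1.24 in 3AT40mM, had the largest. In galactose their differences ran from -0.53 to 0.16. Neighbour-corrected, YNL319W did not pass, at -1.06 (adjusted p = 0.0628). YAR064W differed by -2.05 (adjusted p = 0.0487), or -1.17 neighbour-corrected (adjusted p = 0.1285). The tested IDs on either side of it, YAR061W and YAR068W, also lay wholly lower without passing, at -1.25 and -0.71. Neighbour-corrected they stood at -0.57 and 0.38, so the low value of YAR064W was partly shared by its rows.

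The structural GAL genes had low values in early glucose where they were measured. GAL1, galactokinase, stood at -2.67 at 344 h in no3AT, with no value at 353 h, and at -4.26 and -3.17 in 3AT40mM. GAL7, the uridylyltransferase, stood at -2.79 at 344 h and -4.87 at 574 h, with no value on the other early arrays, and GAL10, the epimerase, at -3.92 and -3.80 in 3AT40mM with no value in no3AT. These 3 were therefore not tested.

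GAL2, the galactose permease gene, differed by -0.96 (adjusted p = 0.2237), and GAL3, the galactose sensor, by -0.64 (adjusted p = 0.4408). GAL80, the inhibitor of Gal4, had -0.30 at 344 h and -0.50 and -0.38 in 3AT40mM. The 5 measured genes of the list were GAL2, GAL3, GCY1, PGM2 and FUR4, so GAL1, GAL7 and GAL10 are not among them. Across all genes 27.3% lay wholly lower and 21.5% wholly higher, with a median difference of -0.11. The median of the 5 was -0.92, with 4 wholly lower and 0 passing. The other one, FUR4, a uracil permease gene beside the GAL cluster, overlapped, at -1.0 and -1.86 in no3AT and -1.62 and -1.32 in 3AT40mM. PGM2, phosphoglucomutase, was not low in no3AT, at -0.18 and -0.25 against -1.37 and -0.96. The list median ran from -0.96 to -0.24 over 28 settings.

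No glycolytic or stress gene passed. Of 24 measured glycolytic and fermentative genes, 3 lay wholly higher and 3 wholly lower, 12.5% each, against 21.5% and 27.3% of all genes. The array medians were 0.31 and 1.00 in no3AT and 0.93 and -0.37 in 3AT40mM, so the 592 h array was the low one. The median difference of -0.37 became 0.28 without that array and 0.26 without 353 h, but -0.90 without 344 h and -0.94 without 574 h. HXK2, hexokinase 2, stood at 0.30 and 1.15 against -0.41 and -1.51 (difference -1.69, SE 0.43, adjusted p = 0.0565).

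HSP12, a membrane-associated stress protein gene, stood at -1.34 and -0.01 in no3AT and at -3.30 and -2.44 in 3AT40mM, a difference of -2.19 (SE 0.48, adjusted p = 0.0543) and of -2.26 neighbour-corrected (adjusted p = 0.0339). YGP1, a secreted stress glycoprotein gene, differed by -1.11 (adjusted p = 0.1016), or -1.61 neighbour-corrected (adjusted p = 0.0339). Of 22 general stress genes 10 lay wholly lower (45.5%) and 2 wholly higher (9.09%), against 27.3% and 21.5% of all genes. The list median of -0.48 stayed between -0.77 and -0.20 over 28 settings. The 24 heat shock chaperone genes had 3 wholly higher and 3 wholly lower, 12.5% each, against 21.5% and 27.3% of all genes. Their median of 0.00 ran from -0.60 without the 344 h array to 0.31 without 353 h.

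No ergosterol or iron gene passed. Of 20 measured ergosterol synthesis genes 7 lay wholly higher (35.0%) and 1 wholly lower (5.0%), against 21.5% and 27.3% of all genes. The list median was 0.36, and ERG1, squalene epoxidase, stood at 1.28 (adjusted p = 0.0981). Of 16 measured iron genes 6 lay wholly higher (37.5%) and 2 wholly lower (12.5%), against the same shares of all genes. The iron median was 0.24, but -0.29 without the 344 h array and 0.04 without 574 h. FRE1, a ferric reductase gene, stood at 1.78 (adjusted p = 0.0543) and ATX1, a copper chaperone gene, at -1.59 (adjusted p = 0.0778). The remaining 21 of the 41 lists had medians between -0.53 and 0.25, and 0 of their genes passed.

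**Figure D5:**
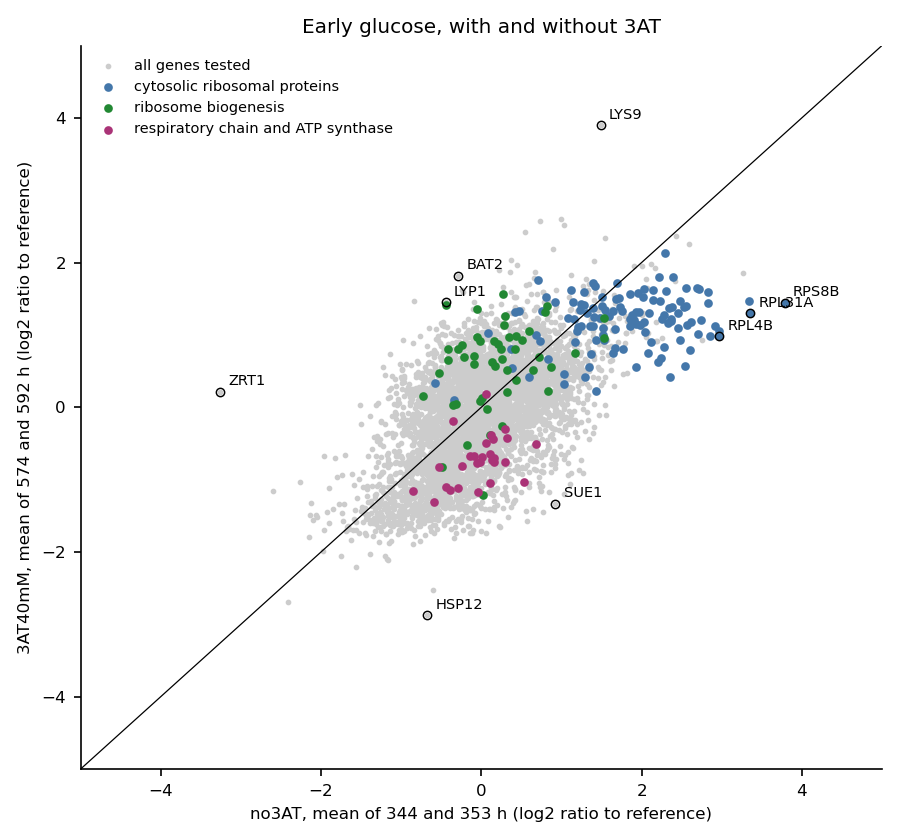
Mean log2 ratio to the reference at 574 and 592 h in 3AT40mM (y axis) against the mean at 344 and 353 h in no3AT (x axis) for each gene tested, with the line of equal values. Most ribosomal protein genes (blue) lie below the line, ribosome biogenesis genes (green) mostly above it and respiratory genes (purple) below it, while ZRT1 stands alone at the upper left.

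Before the switch, in galactose, 1 of 5536 genes passed (0.0181%), AAD3, an aryl alcohol dehydrogenase gene, higher in 3AT40mM, and 330 had an unadjusted p under 0.05. The 14 genes called in early glucose had galactose differences of the same sign in 7 cases. The change from galactose to early glucose, tested with the 552 h array counted as early glucose, differed between the cultures in 0 of 4756 genes (0.0%, with 147 at an unadjusted p under 0.05). On simulated data this test recovered 0% of log2 differences of 1, 13.4% of 2 and 56.1% of 3. A count of 0 therefore does not show that the changes were alike.

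As a description, 1716 of 5107 genes (33.6%) were over 2-fold from galactose in 3AT40mM at 574 and 592 h, and 583 of 5160 (11.3%) in no3AT at 344 and 353 h. The 552 h array of 3AT40mM was left out for its likeness to galactose, which by itself raises the first share, so the shares are not compared.

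The second culture without drug was compared with no3AT in a fit of 17 arrays. In early glucose, 767 of 3891 genes passed (19.7%) between no3AT2 and no3AT, 331 higher (8.51%) and 436 lower (11.2%) in no3AT2. That comparison uses the same no3AT arrays, and no3AT2 carries polyA RNA, so culture and RNA kind cannot be told apart. In the same fit 194 of 4238 genes passed (4.58%) between 3AT40mM and no3AT. RPS8B stood at -0.50 and 0.20 on the no3AT2 arrays at 315 and 328 h, ZRT1 at -4.10 at 315 h with no value at 328 h, LYP1 differed from no3AT by 0.11 (adjusted p = 0.8523), against 1.90 in 3AT40mM, and BAT2 by -0.05 (adjusted p = 0.9357), against 2.11. The ribosomal protein median was -1.99 in no3AT2 minus no3AT over 118 genes, against -0.61 in 3AT40mM minus no3AT.

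The count of called genes rested on single arrays. It was 888 without the 344 h array, 83 and 93 without the steady-state glucose arrays at 507 and 526 h, and 1 without 305, 316, 477, 522 or 353 h. It was 0 without 574 or 592 h, and 14 without 937 h. With the 552 h array counted among the early glucose arrays of 3AT40mM it was 3, and with 552 and 574 h alone it was 0. Without centring, 42 genes passed, 23 higher and 19 lower, and with quantile normalization 11, 9 higher and 2 lower, where the median of all genes was -0.02 and 0.02 against -0.11 as centred.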

How the data were processed

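RNA was measured on 2-colour arrays. The deposited values, 1 column per array, were taken as log2 ratios of sample (Cy5) over reference (Cy3), per the labels; how the arrays were scanned, corrected and normalized, as well as the base, is not given in the sources used here. Of 6281 row IDs, 5763 matched a gene of the R64 annotation table (57 by an older name). The 76 rows sharing a gene were averaged, leaving 6242 genes. Array medians ran from -0.15 to 0.07 and were removed. The number of arrays limits precision.

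Differences were tested with limma 3.58.1 (R 4.3.3; lmFit, eBayes, two-sided) on 11 total RNA arrays in 6 groups of culture and phase, with 5 residual and 13.3 prior degrees of freedom. A gene needed values on all 4 early glucose arrays, in each of the 6 groups and on at least 80% of the 11, leaving 4773 genes. The measured genes of a list are those that met this rule. The 5 other total RNA arrays were not in that fit. On simulated data with 200 of 4773 genes changed, the early glucose fit recovered 11.9% of log2 changes of 1, 76.1% of 2 and 87.9% of 3, with 7 false calls. The simulated noise was independent between rows, with 1 spread per gene, equal on all arrays. It lacked the row pattern of the 353 h array. It also lacked the correlation between adjacent rows at 344 h (0.323), 574 h (0.283) and 592 h (0.44). These figures therefore need not hold for the real arrays.

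The members, the 41 gene lists and the tests were chosen with earlier results of these data known. RPP1, an RNase P subunit gene that a name pattern had placed among the ribosomal proteins, was taken out of that list after its values were seen. Genes named are up to 10 largest differences per direction among those passing without overlap, filled by smallest p, the HIS and GAL genes and GCN4, and up to 4 members of each list described. An item that this rule names is not reported here. YDL118W, AAD3, FUR4, YAR061W and YAR068W were named after their values were seen. Alternatives covered centring, quantile normalization, filters on missing values, rows of one gene, moderation, a 2-fold minimum, row position, chromosome arm, arrays fitted and each array left out. Neighbour-corrected values with an array left out were added after seeing the data.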

Additional observations from a re-analysis of the deposited data

Results flagged for a closer look

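The change from galactose to early glucose went up on average in one culture and down in the other for 20 named genes. Each had all galactose values, and all early glucose arrays of a culture on one side of its galactose mean. HSP12, without a value at 305 h, and MUP1, without one at 316 h, otherwise met this description. Their changes in 3AT40mM minus those in no3AT were -1.66 and 1.32. The arrays were chosen by their distance from galactose, and the difference was not tested. Values are changes in 3AT40mM minus changes in no3AT on the log2 scale.

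Of genes that rose in 3AT40mM and fell in no3AT, GCD2 stood at 1.75, WAR1, an activator of weak acid resistance, at 1.69, ERG12 at 1.46, FRE1 at 1.44, BIR1 of the chromosomal passenger complex at 1.38, MDJ1, a mitochondrial chaperone gene, at 1.33 and LYS14 at 1.16. Of genes that fell in 3AT40mM and rose in no3AT, YOR053W stood at -2.23, YNL028W at -2.18, YFL013W-A at -1.81, ATX1, a copper chaperone gene, at -1.78, GLK1, glucokinase, at -1.49, YNL319W at -1.44, MRP21 at -1.40, RIP1 at -1.37, ARO4 at -1.18, ZAP1 at -1.08, ATP1 at -1.0, ATP4 at -0.93 and SNO3 at -0.75. RIP1, ATP1 and ATP4 belong to the respiratory chain and ATP synthase list described above.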

How the results depend on the processing

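No paired analysis was possible because the labels give the cultures no shared replicate numbers, only hours that differ. For early glucose the count of 14 became 42 (values as deposited), 98 (neighbour-corrected), 59 (chromosome arm median removed), 0 (no filter on missing values, with 1201 at an unadjusted p under 0.05 by limma), 84 (trend and robust), 1 (4 arrays only), 69 (16 arrays), 194 (17 arrays), 3 and 0 (with 552 h counted as early), and 0 to 888 with 1 array left out. Neighbour-corrected with an early array left out, it was 404 without 344 h, 0 without 353 h or 574 h and 272 without 592 h. The galactose count of 1 became 157 (quantile), 6 (neighbour-corrected), 0 (arm median removed, trend and robust), 93 (4 arrays only), 4 (16 arrays), 7 (17 arrays) and 0 to 8 with 1 array left out. The no3AT2 count of 767 ran from 225 (without 315 h) to 1281 (without 344 h), and was 243 without 353 h. The cause was not tested.

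Differences that changed sign were all short of the threshold. Without centring HIS1 stood at 0.03. With quantile normalization HIS1 stood at 0.55, HIS4 at 0.27, HIS5 at 0.07 and SNZ1 at 0.47. Neighbour-corrected, HIS1 stood at 0.31, HIS4 at 0.51 and HIS5 at 0.08, and with the arm median removed HIS4 at 0.43 and HIS5 at 0.09. With 1 array left out the range was -0.52 to 0.41 for HIS1, -0.34 to 0.14 for HIS4, -0.60 to 0.23 for HIS5, 0.00 to 1.02 for HIS7 and -1.30 to 0.61 for SNZ1. Without 344 h HIS5 stood at 0.06. Without 353 h HIS1 stood at 0.41, HIS4 at 0.05, HIS7 at 0.00 and SNZ1 at 0.61. Without 574 h HIS5 stood at 0.23, and without 592 h HIS1 at 0.27 and HIS4 at 0.14. With 552, 574 and 592 h HIS3 stood at 0.51. With 552 and 574 h HIS3 stood at 0.87, HIS6 at 0.23, GAL3 at 0.38, ZRT2 at -0.24, CPA1 at -0.07 and ADE12 at -0.11. Neighbour-corrected without 344 h, HIS1 stood at 0.43, HIS4 at 0.42, HIS5 at 0.35, GAL2 at 0.68, ZAP1 at 0.15, ADH4 at -0.21 and ARO4 at 0.07. Without 353 h these were HIS1 at 0.20, HIS4 at 0.59, SNZ1 at 0.25 and GCD2 at -0.12, without 574 h HIS1 at 0.25, HIS4 at 0.53, HIS5 at 0.56 and HSP78 at 0.13, and without 592 h HIS1 at 0.37, HIS4 at 0.48, GCN4 at 0.36, GAL2 at 0.32, LEU2 at 0.42 and SSA1 at 0.38.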

Other observations

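IDs that matched no gene of the annotation table stood apart as a group of rows. Of the genes tested, 350 IDs (7.33%) had no match. Their median difference was -0.64, against -0.07 for matched IDs, and -0.54 against 0.03 neighbour-corrected. Of the 350, 191 (54.6%) lay wholly lower and 11 (3.14%) wholly higher in 3AT40mM, against 27.3% and 21.5% of all genes. Their array medians in early glucose were -0.03 and -0.18 in no3AT and -1.10 and -0.51 in 3AT40mM. In galactose they were 0.02 and 0.11 in no3AT and 0.09 and 0.18 in 3AT40mM.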
